A study of Rattus norvegicus with 3 samples.

Results

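The C/EBP genes are the 6 rat genes whose symbols begin with Cebp in the peak annotation: Cebpa, Cebpb, Cebpd, Cebpe, Cebpg and Cebpz. Their peaks were taken from the full H3K4me2 peak lists of rat liver as every peak whose gene entry, separated at semicolons, held one of these names. This gave 17 of 26577 peaks, 8 of 7128 in the olanzapine list and 9 of 19449 in the clozapine list, and 6 of the 12100 gene names found in the lists. A separate short sheet beside each full list holds peaks that the authors selected, and 7 of the 8 olanzapine peaks and 8 of the 9 clozapine peaks were also in it. These sheets are small, with 9 rows for olanzapine and 16 for clozapine, so C/EBP peaks make up much of each.

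Female Sprague-Dawley rats received oral olanzapine at 3 mg/kg, oral clozapine at 20 mg/kg or a drug-free vehicle pellet, each given 2 times daily during 9 weeks, with 12 animals assigned to each group. Their age is not given in the sources used here. H3K4me2, the dimethylated form of lysine 4 on histone H3, was measured by chromatin immunoprecipitation and sequencing (ChIP-seq) in 1 liver library per group, each labelled as a single rat, and a peak list was used here for the olanzapine and the clozapine library. No vehicle peak list was used here. Each drug is represented by a single library without replicates. No difference between the libraries was tested, and drug, animal and library cannot be told apart. Olanzapine, a thienobenzodiazepine, and clozapine, a dibenzodiazepine, were given at different doses, so their values stand side by side only.

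C/EBP proteins (CCAAT/enhancer-binding proteins) belong to the bZIP class of transcription factors, which bind DNA as dimers through a leucine zipper and a basic region. In liver, Cebpa maintains hepatocyte identity and genes of gluconeogenesis, whereas Cebpb and Cebpd act in the acute-phase response to interleukin 6. Cebpe acts late in granulocyte maturation, and Cebpg lacks a strong activation domain and forms heterodimers with other C/EBP proteins and with Atf4. Cebpz shares the name but is not a bZIP protein. It is a CCAAT-box-binding factor related to a yeast ribosome assembly protein, while the protein once called C/EBP zeta is Ddit3 (CHOP). H3K4me2 is found at promoters and enhancers of active or poised genes.

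The bases just before 4 of the gene starts are shown because the position of the peaks relative to these starts differed among the members. They are the 150 bases upstream of the start in the RefSeq promoter table of build GRCr8, given 5′ to 3′ on the strand of the gene. Capitals mark the core promoter letters TATAAA, the CREB and ATF half-site TGACG, and ATTGG, which is the complement of CCAAT. The peaks are placed in build Rnor_6.0, so these coordinates do not locate a peak.
Cebpb, chr3:176816855-176817004, strand plus: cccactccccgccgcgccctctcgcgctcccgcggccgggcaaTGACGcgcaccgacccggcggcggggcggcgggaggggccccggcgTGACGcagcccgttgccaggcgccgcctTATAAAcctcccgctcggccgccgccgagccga
Cebpa, chr1:96896434-96896583, strand plus: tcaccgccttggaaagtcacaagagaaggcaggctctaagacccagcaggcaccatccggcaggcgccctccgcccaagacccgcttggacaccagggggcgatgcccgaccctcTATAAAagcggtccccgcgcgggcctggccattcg
Cebpg, chr1:96829737-96829886, strand minus: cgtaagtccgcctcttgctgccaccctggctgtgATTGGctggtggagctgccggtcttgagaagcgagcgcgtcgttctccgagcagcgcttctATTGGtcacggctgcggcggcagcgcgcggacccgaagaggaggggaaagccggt
Cebpe, chr15:32141477-32141626, strand minus: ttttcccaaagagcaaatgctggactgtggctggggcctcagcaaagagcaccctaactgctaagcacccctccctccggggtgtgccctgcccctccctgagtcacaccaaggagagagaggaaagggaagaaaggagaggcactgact

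Letters were searched on both strands in the 250 bases before each start, over 33469 windows of this length. Cebpb held 3 TGACG matches, with first bases at -234, -107 and -61 from the start, and TATAAA at -33. Among all windows, 18.2% held TGACG and 12.9% held TATAAA. Cebpa held TATAAA at -35 and no TGACG. Cebpg held CCAAT on the reverse strand at -116 and -55, and 34.0% of all windows held CCAAT. Cebpz held TGACG on the reverse strand at -43 and was the only one of the 5 genes with an entry in the table to hold TTNNGCAA, a form of the C/EBP site present in 9.22% of windows. No member held TTGCGCAA, which was in 0.140% of windows. Cebpe held none of these motifs and no GGGCGG (GC box), which was in 30.5% of windows. The base composition differed among the members as well. The windows of Cebpb, Cebpg and Cebpa contained 80.0%, 70.4% and 67.2% G and C with 45, 31 and 21 CpG dinucleotides, against a median of 51.2% and 5 over all windows. Cebpz had 58.8% and 17 CpG. Cebpe had 56.4% and 3 CpG, fewer than the median window. Cebpd had no entry in the table.

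The number of genes with a peak has to be read against the lists. The clozapine list is longer, and more of its peaks are short and far from genes. In the olanzapine list, 4 of the 6 members were named by a peak of any class, against 35.9% of 18539 protein-coding genes. In the clozapine list, all 6 members were named, against 52.4% of the protein-coding genes. Without intergenic peaks, the members named were 4 in the olanzapine list (Cebpa, Cebpb, Cebpg and Cebpz; background 26.7%) and 2 in the clozapine list (Cebpb and Cebpd; background 28.2%). Counting only peaks that the authors classed as upstream, 5′ UTR, exonic or splicing, 4 members had a peak in the olanzapine list (background 22.7%). In the clozapine list 1 did, Cebpb (background 14.4%). Below, counts of upstream, 5′ UTR or exonic peaks include the splicing class. An intergenic peak carries the names of both flanking genes, whatever the distance. Cebpa, Cebpb, Cebpg and Cebpz were named in both lists, and 25.8% of protein-coding genes were.

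The class of the peaks differed between the libraries, and in each the intergenic share was above that of the list. Of the olanzapine C/EBP peaks, 3 of 8 were intergenic (37.5%, against 25.3% of that list) and 3 were exonic (37.5%, against 41.0%). Another 1 was upstream and 1 lay in a 5′ UTR, classes with 273 and 1057 of the 7128 peaks. Among the clozapine C/EBP peaks, 7 of 9 were intergenic (77.8%, against 52.2% of that list). There 1 was exonic (11.1%, against 21.0%) and 1 was downstream, a class with 153 of the 19449 peaks. The olanzapine C/EBP peaks had a median length of 871 bp, against 577 bp in their list, and none of the 8 was 200 bp or shorter. Those of the clozapine list had a median length of 171 bp, equal to the median of their list, and 6 of 9 were 200 bp or shorter (66.7%, against 64.2% of that list). Fold enrichment is the authors' ratio over a background that the sources used here do not name. Its median was 4.60 over the olanzapine C/EBP peaks, against 4.30 in their list, and 3.84 over the clozapine C/EBP peaks, against 3.78 in theirs. Read numbers are not in the lists. The number of reads behind each peak is therefore unknown, and no interval can be given for these values.

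**Figure D1:**
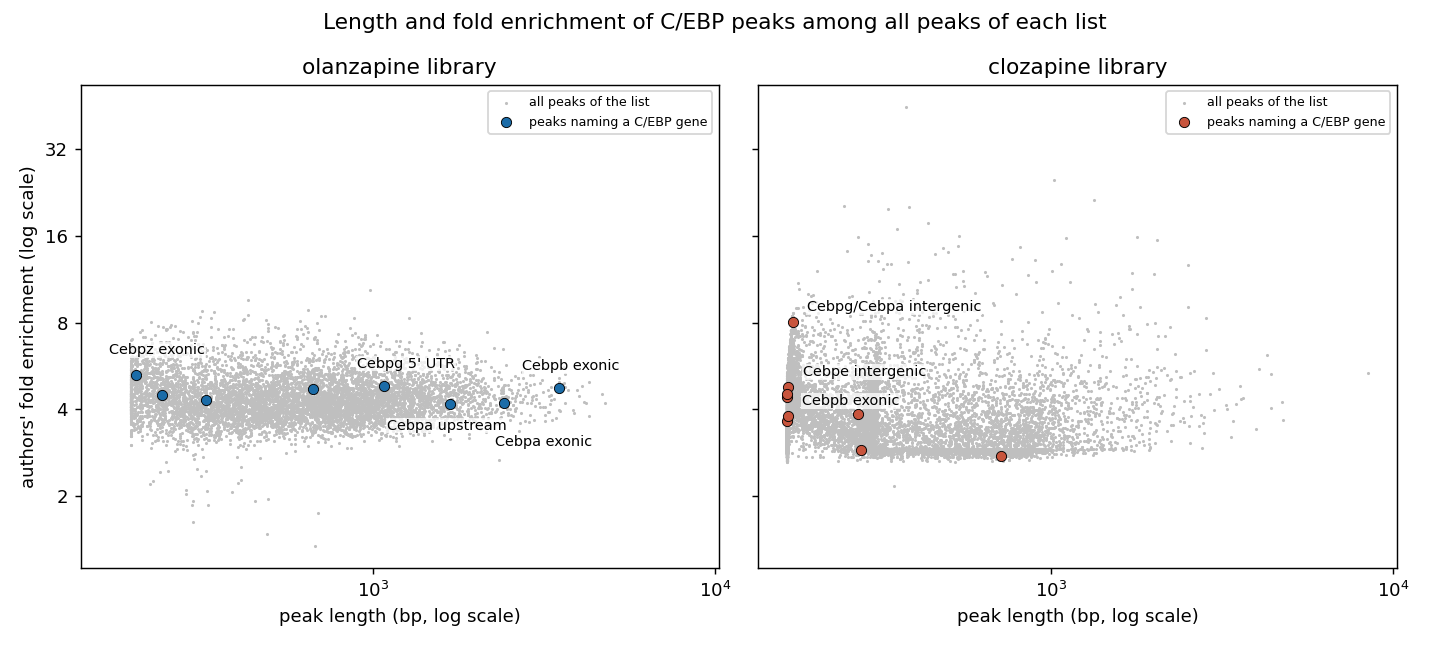
Length (bp, log scale) and fold enrichment (log scale) of every peak in the olanzapine library (left) and the clozapine library (right), with peaks naming a C/EBP gene in colour and some of them labelled. The olanzapine C/EBP peaks reach 3482 bp at fold enrichments between 4.16 and 5.24, while 6 of the 9 clozapine C/EBP peaks lie at 170 to 176 bp, and their fold enrichments run between 2.75 and 8.03.

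Cebpb was the only member with a peak at the gene itself in both libraries, and the extent of the peak differed. In the olanzapine library the exonic Cebpb peak lay at chr3:164423622-164427103 (Rnor_6.0, as all peak positions here) and was 3482 bp long. Gene ends were recovered from the distances printed in the lists, which place Cebpb at positions 164424502 to 164425930, a span of 1429 bp. The olanzapine peak thus spanned -880 to +2601 bp relative to the gene start, covered the whole gene and ended 1173 bp past its end. It ranked 23 of 7128 by length in its list, where 99.7% of peaks were shorter. Its height was less extreme, with a fold enrichment of 4.73 (71.1% of the list lower) and a -log10 p of 7.47 (84.6% lower). In the clozapine library the exonic Cebpb peak was 170 bp long at chr3:164424548-164424717, from 46 to 215 bp after the start, and lay wholly inside the olanzapine peak. Its fold enrichment was 4.51 (74.9% of the clozapine list lower) and its -log10 p was 5.74 (39.0% lower). No peak in the clozapine list is shorter than 170 bp. By the study's read statistics, several-fold more reads aligned in the olanzapine than in the clozapine library. The part of this in the peak lengths was not tested.

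This was the only pair of C/EBP peaks from the 2 libraries that overlapped. It made 1 of 8 olanzapine C/EBP peaks (12.5%) and 1 of 9 clozapine C/EBP peaks (11.1%). Over the whole lists, 167 of 7128 olanzapine peaks (2.34%) overlapped a clozapine peak and 168 of 19449 clozapine peaks (0.864%) overlapped an olanzapine peak. Of the 23 olanzapine peaks at least as long as the exonic Cebpb peak, 3 overlapped a clozapine peak (13.0%). The Cebpb peak itself is counted among the 23 and among the 3.

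Each library also held 1 intergenic peak naming Cebpb. In the olanzapine library it was 668 bp long at chr3:164416030-164416697, between Tmem189 and Cebpb, with its near end 7805 bp before the Cebpb start and 27817 bp from Tmem189. The fold enrichment there was 4.71 and the -log10 p was 6.10. In the clozapine library it was 717 bp long at chr3:164580833-164581549, 154903 bp past the end of Cebpb and 83983 bp from Ptpn1, a phosphatase gene. Its fold enrichment of 2.75 exceeded 1.09% of the clozapine list. These peaks lie on opposite sides of the gene, and Ptpn1 is the nearer gene to the clozapine one.

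Cebpa had peaks on both sides of its start in the olanzapine library and none near the gene in the clozapine library. The lists place Cebpa at chr1:91363492-91366164, a span of 2673 bp. The upstream olanzapine peak was 1678 bp long at chr1:91361577-91363254 and ended 238 bp before the start. Its length exceeded that of 97.1% of the 273 upstream peaks in the list, whereas its fold enrichment of 4.16 and -log10 p of 5.38 were below the middle of the list (41.7% and 38.6% of peaks lower). An exonic olanzapine peak of 2417 bp at chr1:91364217-91366633 began 725 bp after the start and ended 469 bp past the gene end. It ranked 115 by length, with a fold enrichment of 4.20 and a -log10 p of 6.86. The 962 bases between these peaks, which hold the start of the gene, were in no peak. An intergenic olanzapine peak of 325 bp (fold enrichment 4.32) lay 48234 bp past the end of Cebpa and 18308 bp from Slc7a10, an amino acid transporter gene.

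Cebpg lies next to Cebpa on chromosome 1, and the starts of these genes face each other. The olanzapine library held a 5′ UTR peak of Cebpg, 1074 bp long at chr1:91295473-91296546, from 121 to 1194 bp after the start, which the lists place at 91296667. It had a fold enrichment of 4.83 and a -log10 p of 7.39, higher than 74.5% and 83.8% of its list. Between the starts of Cebpg and Cebpa the olanzapine library held no peak other than the upstream Cebpa peak, and the clozapine library held 3 short peaks that carry both names. The clozapine peak nearest to Cebpg was 170 bp long at chr1:91298382-91298551, 1715 bp before the Cebpg start and 64941 bp before the Cebpa start, with a fold enrichment of 3.65. Further in, a peak of 176 bp at chr1:91312815-91312990 had a fold enrichment of 8.03 and a -log10 p of 17.0, the highest of the 17 C/EBP peaks. It ranked 171 by -log10 p in the clozapine list, with 99.1% of peaks lower, and stood 16148 bp from Cebpg and 50502 bp from Cebpa. The last, 170 bp at chr1:91328462-91328631, lay 31795 bp from Cebpg and 34861 bp from Cebpa and had a fold enrichment of 4.41. All 3 clozapine peaks of Cebpa are therefore also the 3 clozapine peaks of Cebpg, and Cebpg is the nearer gene each time.

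**Figure D2:**
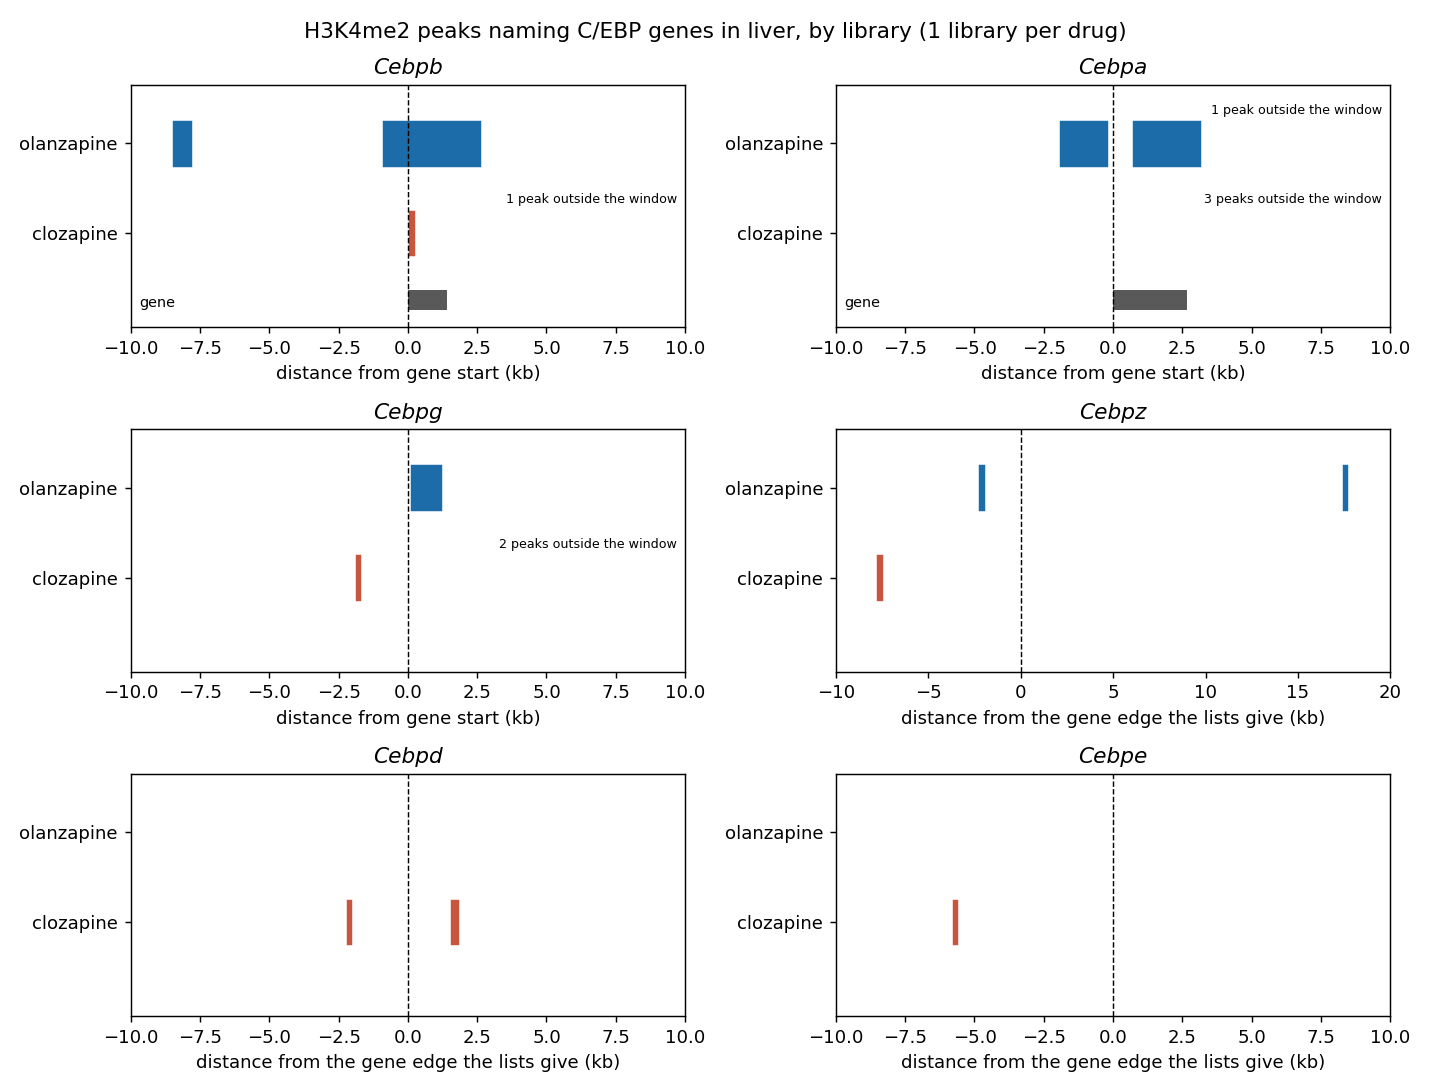
Peaks naming each C/EBP gene, drawn to scale by distance (kb) from the gene start for Cebpb, Cebpa and Cebpg, positive in the direction of transcription, and from the gene edge that the lists give for Cebpz, Cebpd and Cebpe, positive toward higher positions. The upper track of each panel is the olanzapine library, the lower track is the clozapine library, and the grey bar is the gene where both of its ends are known. The exonic olanzapine peak of Cebpb covers the gene and the clozapine peak inside it is 170 bp long, while 1 olanzapine and 3 clozapine peaks of Cebpa, 1 clozapine peak of Cebpb and 2 clozapine peaks of Cebpg fall outside the window.

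Cebpz had short peaks in both libraries. In the olanzapine library an exonic peak of 203 bp at chr6:1534269-1534471 had a fold enrichment of 5.24, the highest of the 8 olanzapine C/EBP peaks (85.3% of the list lower), while 5.71% of the list was shorter. It was the single olanzapine C/EBP peak left out of the authors' short sheet. It lay 17465 bp or more from the edge of Cebpz that faces Sult6b1, at position 1516804. In the intergenic stretch beyond this edge, an olanzapine peak of 242 bp (fold enrichment 4.49, -log10 p 5.68) lay 1993 bp from Cebpz. A clozapine peak of 274 bp (fold enrichment 3.84, -log10 p 4.96) lay 7487 bp from Cebpz in the same stretch. The near ends of these intergenic peaks were 5253 bp apart. The order of Sult6b1, Cebpz and Prkd3 is reversed between the lists and GRCr8, and with the strand turned accordingly the intergenic peaks lie beyond the 3′ end of Cebpz.

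Cebpd and Cebpe were named in the clozapine list alone. A clozapine peak of 171 bp at chr11:89005796-89005966, between Pkp2 and Cebpd, lay 2042 bp from Cebpd with a fold enrichment of 3.79 and a -log10 p of 5.63. It was the clozapine C/EBP peak missing from the short sheet. A second clozapine peak, 278 bp at chr11:89009551-89009828, was classed as downstream of Cebpd and Spidr with a single distance of 103 bp, and the list does not say which gene the distance is from. Its fold enrichment was 2.90, and its -log10 p of 3.69 was the lowest of the 153 downstream peaks in the clozapine list, with 0.488% of all peaks lower. The nearest olanzapine peak to Cebpd was an exonic peak of Yars2, 119317 bp from the lower edge of the gene.

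Cebpe was named by 1 clozapine peak, 171 bp at chr15:33350332-33350502, between RGD1308430 and Cebpe. It lay 5617 bp from Cebpe, beyond the 3′ end, with a fold enrichment of 4.80 and a -log10 p of 9.28. These values are shared. A further 494 clozapine peaks have the same fold enrichment, -log10 p and -log10 q, and 493 of them also have the same length. In all, 0.884% of olanzapine peaks and 44.0% of clozapine peaks share these 3 values with another peak of their list. None of the 8 olanzapine C/EBP peaks and 2 of the 9 clozapine C/EBP peaks do so, the other being the peak 1715 bp from Cebpg. Near Cebpe the olanzapine library held an exonic peak of Acin1, 22539 bp from the lower edge of the gene, and none that names Cebpe.

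The sum of bases in peaks placed the members in a different order in each library. In the olanzapine library it was 4420 bp for Cebpa, 4150 bp for Cebpb, 1074 bp for Cebpg and 445 bp for Cebpz, with none for Cebpd and Cebpe. In the clozapine library it was 887 bp for Cebpb, 516 bp for each of Cebpa and Cebpg, 449 bp for Cebpd, 274 bp for Cebpz and 171 bp for Cebpe. Of the clozapine bases of Cebpb, 717 bp are the intergenic peak 154903 bp past its end, nearer to Ptpn1. The exonic peak makes up 170 bp, so the first place of Cebpb there rests on the distant peak. Together the peaks covered 10089 bp in the olanzapine library and 2297 bp in the clozapine library, with peaks that carry 2 members counted once. The lists cover 5184595 and 6025992 bp in the olanzapine and the clozapine library.

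**Figure D3:**
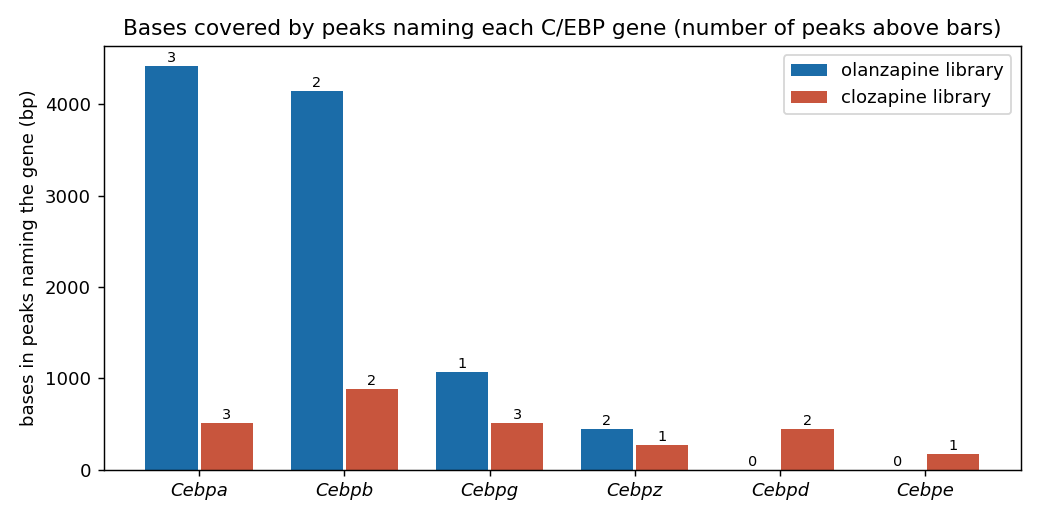
Bases (bp) in peaks naming each C/EBP gene, with the olanzapine library at the left of each pair, the clozapine library at the right and the number of peaks above each bar. Cebpa (4420 bp) and Cebpb (4150 bp) stand above the rest in the olanzapine library, and the 516 bp of Cebpa and Cebpg in the clozapine library are the same 3 peaks. Of the clozapine bases of Cebpb, 717 bp are 1 intergenic peak 154903 bp past the gene.

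Further peaks were counted within 100 kb of any peak, of either library, that names the member. Peaks that name any C/EBP gene were left out of these counts, so the Cebpa peaks near Cebpg are not among them. Around the Cebpz peaks the olanzapine library held 4 further peaks and the clozapine library none. The olanzapine peaks were 5′ UTR peaks of Gpatch11 with Heatr5b (807 bp) and of Eif2ak2 (991 bp), the kinase PKR, and a pair of intronic peaks of Prkd3. Near Cebpe there were 2 further olanzapine peaks and 8 clozapine peaks, at Psmb5, Psmb11, Acin1 and Slc7a8. Of these, the exonic olanzapine peak of Acin1 was 1071 bp long at a fold enrichment of 4.75, and the intronic clozapine peaks of Slc7a8 were 793 bp and 296 bp long at fold enrichments of 2.89 and 6.50. Around the Cebpb peaks the counts were 2 (Ube2v1 and Ptpn1) in the olanzapine library and 4 (Snai1, Ube2v1 and Tmem189) in the clozapine library. The olanzapine Ptpn1 peak is counted through the distant clozapine peak between Cebpb and Ptpn1, and lies beyond 100 kb from Cebpb itself. For Cebpa they were 1 (Lrp3) and 3 (Pepd and Slc7a10), and for Cebpg 0 and 1 (Pepd). Neither library held another peak within 100 kb of the Cebpd peaks.

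For the 4 members named in both libraries, the genes with the most similar strongest peaks were found by the Euclidean distance of log2 length and log2 fold enrichment over the 2 libraries, among genes of the same peak classes. For Cebpb, over 417 genes with exonic peaks in both lists, these were Igfbp4 (distance 0.199; 3934 bp and fold enrichment 4.68 in the olanzapine library, 180 bp and 4.39 in the clozapine library), Ptch1 (0.318) and Glud1 (0.480). Long olanzapine and short clozapine exonic peaks were thus also found at other genes. For Cebpa, over 875 genes, they were Trim8 (0.113), Plpp3 (0.200) and Vegfa (0.312). The nearest to Cebpg, over 343 genes, were Tent4b (0.302), Dnajb6 (0.372) and Stxbp6 (0.394). Actl6a (0.230), Hlx (0.371) and Supv3l1 (0.472) were nearest to Cebpz. The distance uses 1 peak per gene and library. For Cebpa and Cebpg the clozapine peak was the same one, the intergenic peak of 176 bp, 50502 bp from Cebpa and 16148 bp from Cebpg.

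Genes that act with C/EBP proteins were counted in the same way, over 4 lists of their dimer partners and relatives, regulators, targets and Cebpz-related genes. Of 47 other bZIP factors, 29 had an olanzapine peak of any class (61.7%, against 35.9% of protein-coding genes) and 32 a clozapine peak (68.1%, against 52.4%). When upstream, 5′ UTR and exonic peaks alone were counted, 24 had one for olanzapine and 13 for clozapine, where the backgrounds are 22.7% and 14.4%. Ddit3 (CHOP), an inhibitory C/EBP partner, carried in olanzapine a 5′ UTR peak of 577 bp with fold enrichment 3.67, and in clozapine an intronic peak of 171 bp with fold enrichment 5.47. Atf4, a partner of Cebpg and Cebpb, had exonic peaks of like length in both libraries, 1182 bp (4.04) in olanzapine and 1188 bp (3.94) in clozapine. Junb, an AP-1 subunit, was similar, with 1821 bp (4.34) in olanzapine and 1483 bp (4.05) in clozapine. The bZIP genes with the highest -log10 p in the olanzapine library were Atf1, Xbp1 and Fosb. The Atf1 peak was intergenic, 251085 bp from the gene, and Atf1 had no olanzapine peak of the upstream, 5′ UTR or exonic class. Xbp1, a factor of the unfolded protein response, had an exonic peak of 1012 bp and fold enrichment 6.16. The Fosb peak was upstream, 228 bp away. In the clozapine library Atf2, which binds the CRE sequence, had an intronic peak of 173 bp and fold enrichment 6.64.

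Of 14 regulators of C/EBP genes or proteins, 11 had a peak in each library (78.6%), against backgrounds of 35.9% for olanzapine and 52.4% for clozapine. An upstream, 5′ UTR or exonic peak was present at 8 of them for olanzapine and at 3 for clozapine, where the backgrounds are 22.7% and 14.4%. Stat3, which carries the interleukin 6 signal to Cebpb and Cebpd, had a 5′ UTR olanzapine peak of 1448 bp (fold enrichment 5.59), and its strongest clozapine peak was intronic, 172 bp (5.72). The interleukin 6 receptor genes Il6r and Il6st had olanzapine peaks of 2008 bp (exonic, 4.86) and 1275 bp (intergenic, 6.32), while Il6r had 2 clozapine peaks, the one with the higher -log10 p 54451 bp away, and Il6st had none. Trib1, which directs Cebpa to degradation, had an exonic olanzapine peak of 1389 bp (3.36), and its strongest clozapine peak lay 55084 bp away.

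Of 18 liver and adipose targets of C/EBP proteins, 15 had a peak of any class in each library (83.3%, against the same backgrounds). Those with an upstream, 5′ UTR or exonic peak were 12 for olanzapine and 10 for clozapine (backgrounds 22.7% and 14.4%). The strongest olanzapine peak of Alb (albumin) was intergenic (507 bp, 4.64) and lay 101740 bp away. Alb was also among the 12 genes with an upstream, 5′ UTR or exonic olanzapine peak. Its strongest clozapine peak was exonic, 907 bp long at a fold enrichment of 11.1. G6pc1, the last enzyme of gluconeogenesis, had an exonic olanzapine peak of 794 bp (4.79) and an intergenic clozapine peak 12889 bp away. Hamp (hepcidin, 1727 bp) and Orm1 (an acute-phase protein, 678 bp) carried exonic olanzapine peaks and no clozapine peak, while Fabp4 and Cyp2c11 carried short intronic clozapine peaks and no olanzapine peak. Pparg, a target of C/EBP proteins in adipocytes, had a 5′ UTR olanzapine peak of 1146 bp (4.03), and its strongest clozapine peak was exonic, 397 bp (4.70). Of 14 genes of nucleolar ribosome assembly, set beside Cebpz, 10 had an olanzapine peak of any class (71.4%) and 9 a clozapine peak (64.3%). Those with an upstream, 5′ UTR or exonic peak were 9 for olanzapine and 4 for clozapine, against the same backgrounds of 22.7% and 14.4%.

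Markers of liver cell types and of granulocytes stand beside these counts because Cebpe is restricted to granulocytes. All 16 hepatocyte markers had a peak in both libraries. The 14 granulocyte genes had 1 named gene in the olanzapine library, Ngp at 71466 bp, and 13 in the clozapine library, all but Ctsg. The clozapine peaks included exonic peaks of S100a9 (fold enrichment 44.9), S100a8 (14.8), Ltf (8.22) and Mpo (2613 bp, 5.41), all of them products of neutrophils or their precursors. Elane (1245 bp, 5.00), Camp (5.91) and Lcn2 (5.25) were exonic too, whereas Gfi1 and Cebpe were named by intergenic peaks. With an upstream, 5′ UTR or exonic peak, the count was 0 of 14 for olanzapine and 12 of 14 for clozapine (backgrounds 22.7% and 14.4%). Counted in the same way, hepatocyte markers numbered 11 and 14 of 16, and endothelial and stellate cell markers 0 and 4 of 10 each. Cholangiocyte markers numbered 3 and 4 of 9, Kupffer cell markers 0 and 1 of 12, and lymphocyte markers 0 and 1 of 10. The part that granulocytes in the tissue had in the clozapine peak of Cebpe was not tested. In the other marker lists, genes named by any peak numbered 1 and 5 of 12 (Kupffer cells), 4 and 7 of 10 (endothelium), 0 and 9 of 10 (stellate cells), 3 and 7 of 9 (cholangiocytes) and 1 and 4 of 10 (lymphocytes) in the olanzapine and the clozapine library. The backgrounds for any class are 35.9% and 52.4%. The clozapine shares of Kupffer cell (41.7%) and lymphocyte (40.0%) markers were below the clozapine background. Granulocyte (7.14%), Kupffer cell (8.33%), lymphocyte (10.0%) and stellate cell (0%) markers were below the olanzapine background. The olanzapine shares of cholangiocyte (33.3%) and endothelial (40.0%) markers were near it.

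**Figure D4:**
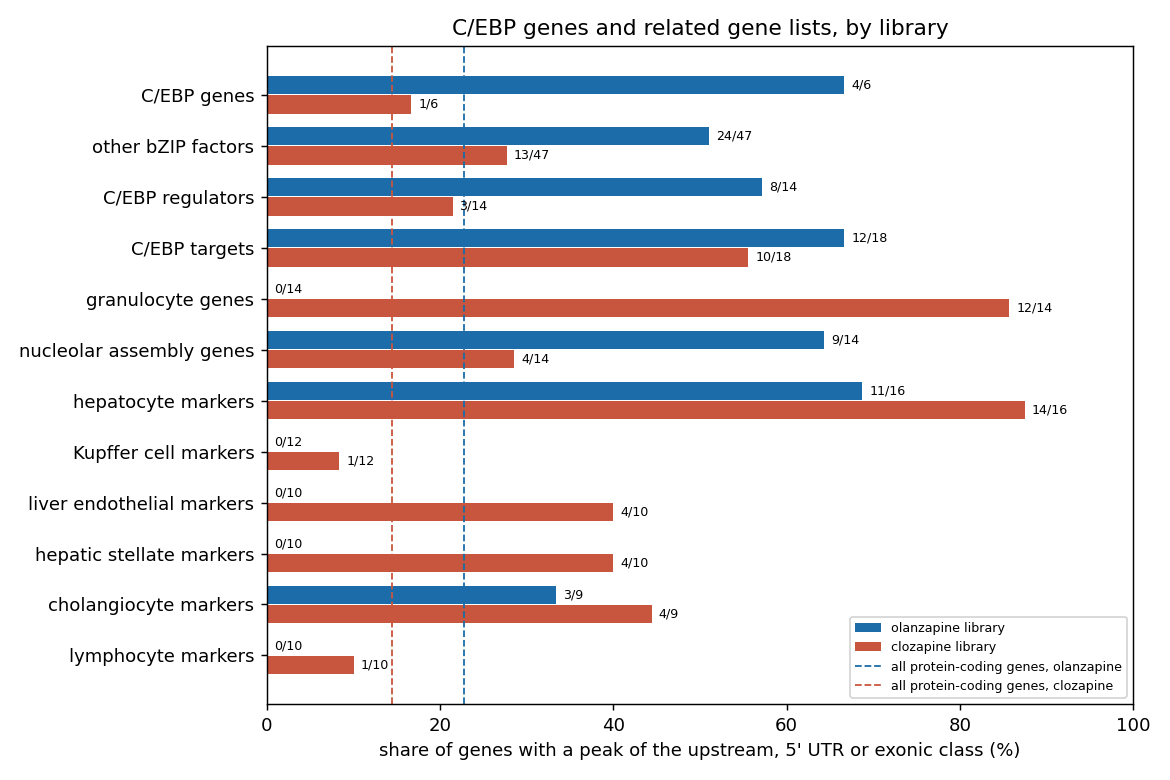
Share (%) of the 6 C/EBP genes and of each related gene list with an upstream, 5′ UTR or exonic peak, splicing peaks included. The olanzapine library is above the clozapine library in each pair, with the number of genes at the bar end. Dashed lines give the share of 18539 protein-coding genes (22.7% olanzapine, 14.4% clozapine). Such a peak was present at 4 of 6 C/EBP genes in the olanzapine library and 1 of 6 in the clozapine library. Granulocyte genes numbered 0 of 14 and 12 of 14, and hepatocyte markers 11 and 14 of 16.

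The authors' tables of GO terms and KEGG pathways hold the members unevenly. Among 9672 GO terms in the olanzapine table, Cebpa was in 309, Cebpb in 397 and Cebpg in 197, and Cebpa and Cebpb shared 226, liver development and fat cell differentiation among them. Of the 10045 GO terms in the clozapine table, 397 held Cebpb and none held another member. In the KEGG tables Cebpa stood in 4 olanzapine pathways: acute myeloid leukemia, non-alcoholic fatty liver disease, pathways in cancer and transcriptional misregulation in cancer. Cebpb stood in the same 3 pathways in each library: TNF signaling, transcriptional misregulation in cancer and tuberculosis. Cebpg stood in 1 olanzapine pathway, tuberculosis. How many terms hold other genes is not given here, so these counts have no background. Genes named by intergenic peaks alone were almost absent from the tables, with 0.118% of such genes present for olanzapine and 0.223% for clozapine, against 72.1% and 74.6% of genes with a peak of another class. Cebpz, exonic in the olanzapine library, and Cebpd, downstream in the clozapine library, were in no term.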

How the data were processed

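Liver H3K4me2 ChIP-seq gave 1 olanzapine, 1 clozapine and 1 vehicle library, and the peak lists of olanzapine and clozapine were analysed. By the study's methods, the authors removed reads with adapters, undetermined bases or low quality, aligned the rest with BWA to Rnor_6.0 (the build is also in the submitters' processing notes) and kept unique matches without mismatches. The olanzapine and the clozapine library each have their own peak list. The study names normal mouse IgG as the negative control of the immunoprecipitation. The peak caller, its threshold and whether that control or the vehicle library entered peak calling are not given in the sources used here. The deposited lists give each peak's length, its fold enrichment as a ratio over an unnamed background, a -log10 p-value and a -log10 q-value, an annotation class and gene names. The deposited enrichment tables also hold the authors' p-values, which were not used: only gene membership was read. By the study's read statistics, the number and share of reads that aligned were several-fold higher in the olanzapine than in the clozapine library, and its part in the values here was not tested.

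Members and lists were chosen with earlier results of these data known. The text names the members, genes with peaks within 100 kb, up to 3 genes per list and library by -log10 p, and the 3 nearest genes in length and fold enrichment. Part of what this rule selects is not reported here. Other list genes, and the statements on shared values, were picked once their values were known. Of 12100 gene names, 11839 (97.8%) matched the RefSeq names table (GRCr8), whose 18539 protein-coding genes were the background. Promoter sequences came from RefSeq (GRCr8), where 5 of the 6 members had an entry. Overlap was counted from 1 bp, and this step recovered 100% of 592 overlaps planted among 2000 simulated peaks. Positions count from 1. No p-value was computed, since each drug had 1 library. The alternatives set minimums of 5 on -log10 q or on fold enrichment, kept only peaks over 200 bp, or used other classes, other name matching and other overlap criteria. Python 3.11.15, numpy 2.4.6, pandas 2.3.3 and matplotlib 3.10.9 were used.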

Additional observations from a re-analysis of the deposited data

How the results depend on the processing

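At a -log10 q of at least 5 the olanzapine list named 0 members in 0 peaks, against 4 in 8 as reported, and the clozapine list named 3 members in 2 peaks, against 6 in 9. That threshold kept 6.1% of all olanzapine and 19.4% of all clozapine peaks, which named 2.78% and 20% of protein-coding genes. At a fold enrichment of at least 5 the olanzapine list named 1 member (Cebpz) in 1 peak. The clozapine list named 2 members (Cebpa and Cebpg) in 1 peak. Of all olanzapine and clozapine peaks, 20.1% and 12.5% passed, naming 8.91% and 14.5% of protein-coding genes. With peaks longer than 200 bp the olanzapine counts stayed at 4 members and 8 peaks, and the clozapine list kept 3 members in 3 peaks. Here 94.7% and 35.8% of all peaks passed, naming 34.5% and 29.8% of protein-coding genes. With upstream, 5′ UTR and exonic peaks only, the olanzapine list had 5 peaks and the clozapine list 1 member in 1 peak (gene backgrounds 22.7% and 14.4%). In any class but intergenic these were 5 peaks, and 2 members in 2 peaks (gene backgrounds 26.7% and 28.2%). Where the whole gene entry had to equal the member they were 5 peaks, and 1 member in 1 peak. The 1 overlapping peak became 0 at a -log10 q of at least 5 and 0 with peaks longer than 200 bp, and stayed at 1 within 1 kb. The gene lists together hold 166 genes. The 120 of them with a clozapine peak became 63 with upstream, 5′ UTR and exonic peaks only and 79 with peaks longer than 200 bp. The 83 with an olanzapine peak stayed between 63 and 82. In alternatives chosen after seeing the data, keeping only the nearer flanking gene, or intergenic peaks within 10 kb, gave 4 olanzapine and 5 clozapine members. The share of all genes under these alternatives, and where the whole gene entry had to match, is not given here. No paired analysis was possible because each drug had 1 library. The number of reads behind each peak is not in the lists, which limits what the absence of a peak can show.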
